A study of Mus musculus with 2 samples.

Results

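The mucins and the genes of the mucus cell programme described here are 10 genes chosen by symbol: Muc1, Muc4, Muc5ac, Muc5b, Muc16, Muc20, Agr2, Spdef, Gp2 and Tff2. GENCODE release M21 paired 9 of them with identifiers among the 37315 in the count files. The identifier of Muc16, a very large membrane mucin, matched no row and Muc16 is not analysed here. Their messenger RNA was measured in 1 lung library of C57BL/6 mice exposed to PM2.5, the airborne particles of up to about 2.5 micrometres, and in 1 lung library of C57BL/6 control mice. The titles hold a 12 and a W whose meaning is left unsaid, and the sources used here do not give the sex, age, dose, route or number of animals of either library. With 1 library a group no spread between animals can be measured, so no test of the exposure was possible, and every value below describes these 2 libraries.

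Mucus lines the airways as a gel that traps particles and is moved out by cilia. Its scaffold is made of the gel-forming mucins Muc5b and Muc5ac, which goblet and club cells store in granules and secrete. Membrane mucins such as Muc1, Muc4, Muc16 and Muc20 stay anchored on the surface of epithelial cells and form the layer below the gel. Agr2 is a disulfide isomerase of the endoplasmic reticulum needed to fold gel-forming mucins, and Spdef is a transcription factor that drives goblet cell differentiation. Tff2 is a trefoil peptide secreted with mucus, and Gp2 is a glycoprotein of secretory granules and of M cells, the antigen-sampling cells of mucosal epithelia.

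Of the 9 genes, 6 were higher in the PM2.5 library (Gp2, Agr2, Spdef, Muc4, Tff2 and Muc20), 2 were lower (Muc1 and Muc5ac) and Muc5b was neither. To be called, a gene needed a difference of 1.5-fold and an exact 95% counting interval that left out 1, and a mean level of 1 CPM or more. CPM is the count divided by the library size after scaling. By this rule 34.0% of 14518 measured genes were called, 14.9% higher and 19.1% lower. The calls of Muc4, Tff2 and Muc20 lay close to the limit, at ratios of 1.58, 1.52 and 1.51, and their intervals, like those of Spdef and Muc5ac, reach below 1.5-fold. The median log2 ratio was 0.61 over the 9 genes and -0.09 over all measured genes, whose middle 50% ran from -0.48 to 0.33. Among the 4097 genes with a mean between 1 and 10 CPM, where Agr2, Spdef, Gp2 and Muc5ac lie, 45.8% were called, 31.7% higher and 14.2% lower. Without the filter 31.2% of the 24315 genes with a count were called, 18.4% higher and 12.8% lower. All 9 passed the filter, but Gp2 was at 1 CPM or more only in the PM2.5 library and Muc5ac only in the control library, so both calls partly follow from the filter. At 2-fold Gp2 and Agr2 were called higher and none of the 9 lower, against 13.3% of measured genes called at that size, 7.25% higher and 6.04% lower.

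Several facts of the whole pair of libraries bear on these counts. The PM2.5 library held 57435027 counts and the control library 62788045. The balance of all calls depends on scaling: 43.8% of called genes were higher with TMM (trimmed mean of M values) scaling. It was 70.6% with library totals, which add 0.23 to every log2 ratio, and 59.7% with the upper quartile, which adds 0.14. List medians between -0.23 and 0 therefore change sign with library totals. The share was 59.0% without a filter, 28.3% among genes of at least 10 CPM and 54.6% at 2-fold. Longer genes had lower log2 ratios, with Spearman's rho of -0.31 across 14387 genes, a description of genes that share the same 2 libraries. The median log2 ratio was 0.34 in the tenth of genes with the shortest exonic length (median 1200 nt) and -0.39 in the tenth with the longest (median 12311 nt). Intervals cover counting error only and no spread between animals. They are too narrow where reads are not independent molecules.

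What makes these proteins mucins is visible in their coding sequence, which is rich in the codons for serine and threonine, the residues that carry the O-linked sugars of mucus. In the longest annotated coding sequence such codons made up 38.1% in Muc4, 35.2% in Muc20, 34.9% in Muc1, 26.2% in Muc5b and 23.5% in Muc5ac. Among 21026 genes compared the median was 13.2%, and only 0.0238% had as large a share as Muc4 and 0.885% as large a share as Muc5ac. The 4 non-mucins had ordinary shares, 14.9% in Agr2, 14.6% in Gp2, 12.6% in Spdef and 10.1% in Tff2. The stretch of 20 codons with most serine and threonine codons, which are set in capitals, is shown for 4 mucins, 5′ to 3′, as an example of the domain that becomes glycosylated. It held 15 such codons in Muc4, 14 in Muc5ac and Muc5b and 13 in Muc20.
Muc4: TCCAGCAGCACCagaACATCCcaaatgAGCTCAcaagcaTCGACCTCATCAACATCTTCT
Muc20: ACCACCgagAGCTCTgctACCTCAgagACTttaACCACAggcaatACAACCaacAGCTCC
Muc5ac: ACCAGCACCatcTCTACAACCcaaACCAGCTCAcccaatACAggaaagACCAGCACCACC
Muc5b: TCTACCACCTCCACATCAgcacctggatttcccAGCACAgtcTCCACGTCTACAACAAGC
These sequences come from the GENCODE M21 transcripts on GRCm38. The repeats also touch the measurement: 17.6% of the 125-base windows of the Muc5ac transcript and 14.4% of those of Muc5b occur more than once in the same transcript, the length of the reads. The share was 1.42% in Muc4, and Muc1 and Muc20 had 0 such windows. In Muc20, 7.24% of windows also occur in the transcript of another gene, and Muc4 held a smaller share of such windows. The exons of these neighbours overlap on opposite strands, as described below. Such windows may therefore be the same stretch of genome and not a repeat, which was not tested. The sources used here do not state how reads that map to several places were counted.

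**Figure D1:**
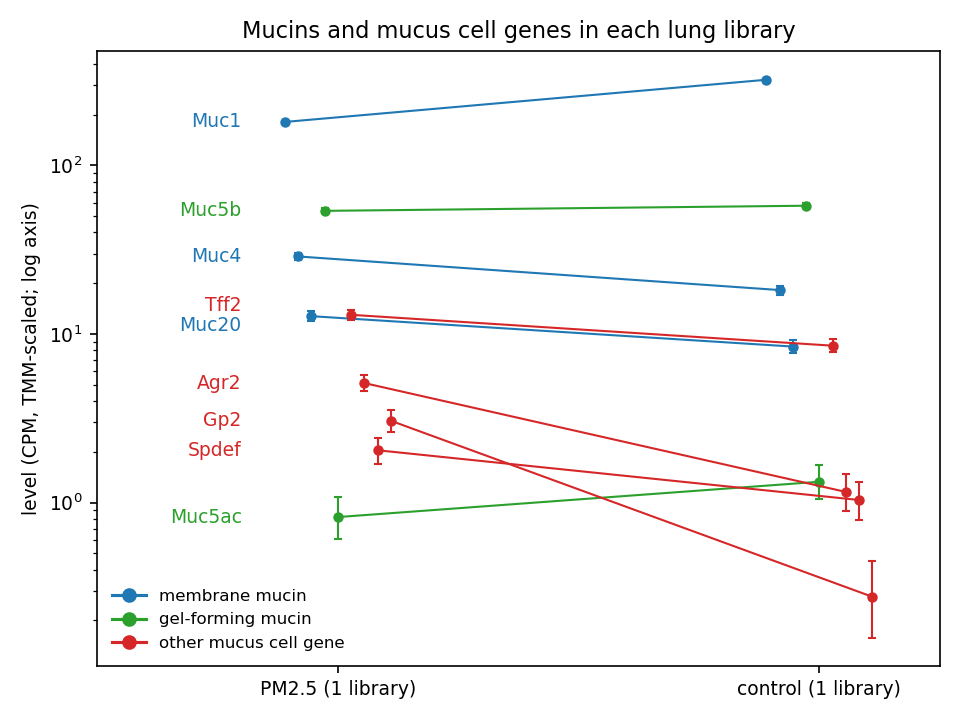
Level of each gene in the PM2.5 library (left) and the control library (right) in CPM on a log axis. Points are the values of 1 library each, bars are exact 95% Poisson intervals for counting error, lines join the same gene and colours give the role. Gp2 and Agr2 show the steepest difference, while Muc1 is the most abundant gene in both libraries and lower in the PM2.5 library.

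Muc1, the most abundant membrane mucin of alveolar and airway epithelium, was lower in the PM2.5 library. Muc1 (ENSMUSG00000042784) lies on the plus strand of chromosome 3 in GRCm38, from 89229057 to 89233381. It had 11262 counts in the PM2.5 library and 18679 in the control library. That is 181 CPM (95% Poisson interval 178 to 184) in the PM2.5 library and 322 CPM (318 to 327) in the control library, a 1.78-fold lower level (counting interval 1.74 to 1.82). It was lower under every scaling tried, with log2 ratios between -1.44 and -0.60. Its short exonic length of 2346 nt sets it apart from the general trend, since genes of that length had higher ratios than long ones: with the length trend removed its log2 ratio was -0.97.

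Muc4 and Muc20, a pair of membrane mucins encoded side by side, were both higher. Muc4 (chromosome 16, plus strand, 32735886 to 32782391), a mucin that can bind the receptor ErbB2, had 1793 counts in the PM2.5 library and 1056 in the control library, 28.8 CPM and 18.2 CPM, a ratio of 1.58 (1.47 to 1.71). Muc20 (chromosome 16, minus strand, 32777419 to 32797435) had 793 counts in the PM2.5 library and 488 in the control library, 12.7 CPM and 8.42 CPM, a ratio of 1.51 (1.35 to 1.70). The ratio for Muc4 divided by that for Muc20 was 1.04 (exact interval 0.910 to 1.20), so a difference between them was not detectable at this depth. Both genes moved against Muc1: the ratio of Muc4 was 2.82 times that of Muc1 (2.60 to 3.05). The Muc4 and Muc20 genes run towards each other and their exons overlap by 627 nt, 15.6% of the exonic length of Muc20 and 5.33% of that of Muc4. Whether the counting used strand is not given, so reads from the overlap may have been lost or shared, and the 2 genes are not independent there.

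Neither gel-forming mucin was called higher. Muc5b (chromosome 7, plus strand, 141839070 to 141873084), the mucin that dominates healthy airways, had 3343 counts in the PM2.5 library and 3342 in the control library, 53.7 CPM and 57.6 CPM. The ratio of 0.932 (0.888 to 0.978) turns with scaling: the log2 ratio was -0.10 with TMM, 0.13 with library totals, 0.04 with the upper quartile and 0.21 with the length trend removed. Muc5ac (chromosome 7, plus strand, 141788972 to 141819231), the inducible mucin of goblet cells, was rare, with 51 counts in the PM2.5 library and 77 in the control library, 0.820 CPM (0.610 to 1.08) and 1.33 CPM (1.05 to 1.66). These Poisson intervals overlap slightly, and the level was 1.62-fold lower with an interval of 1.12 to 2.35. The call was lost with library totals, the upper quartile or the length trend removed, at log2 ratios of -0.47, -0.56 and -0.44.

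Of these 2 mucins Muc5b took nearly all counts in both libraries. Muc5ac took 1.503% of the counts of the pair in the PM2.5 library (exact binomial interval 1.12% to 1.97%) and 2.25% in the control library (1.78% to 2.81%). This share does not depend on scaling, and the ratio of Muc5ac divided by that of Muc5b was 0.662 (0.454 to 0.959). The pair lies 19839 nt apart on the same strand. Other gel-forming mucins of the same chromosome region were rarer than Muc5b. Muc2, the intestinal mucin, 34279 nt from Muc5ac, had 19 counts in the PM2.5 library and 5 in the control library, a ratio of 3.54 (1.28 to 12.1) at levels below 1 CPM. Muc6, a mucin of gastric glands (chromosome 7, minus strand, 141633456 to 141655319), had 167 counts in the PM2.5 library and 13 in the control library, a ratio of 11.97 (6.81 to 23.0).

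**Figure D2:**
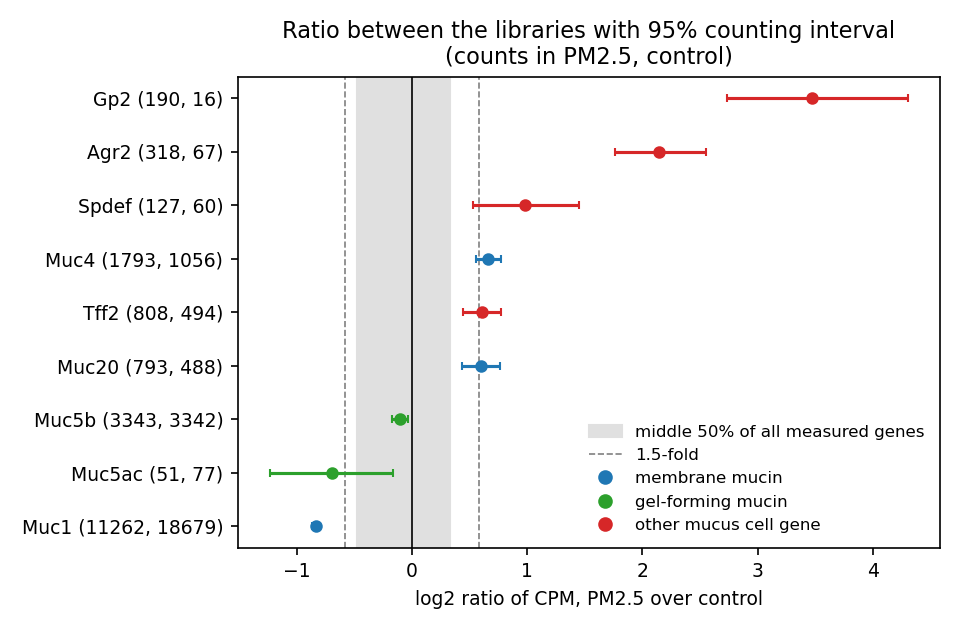
Log2 ratio of CPM, PM2.5 over control, for each gene with its exact 95% counting interval; counts in the PM2.5 and control libraries stand beside the names. The shaded band holds the middle 50% of all measured genes, from -0.48 to 0.33, and dashed lines mark 1.5-fold. Of the mucins 2 lie to the right and 2 to the left of the dashed lines, with Muc5b between, whereas Tff2, Spdef, Agr2 and Gp2 all lie to the right.

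Of the 9 genes, Gp2, Agr2 and Spdef, which are not mucins, had the 3 largest ratios. Agr2 (ENSMUSG00000020581; chromosome 12, plus strand, 35992907 to 36004087) had 318 counts in the PM2.5 library and 67 in the control library, 5.11 CPM (4.57 to 5.71) and 1.16 CPM (0.896 to 1.47). Its ratio of 4.42 (3.39 to 5.85) was higher than those of 98.4% of measured genes. Its paralogue and neighbour Agr3, 43171 nt away, had 325 counts in the PM2.5 library and 216 in the control library and a ratio of 1.40 (1.18 to 1.67), under the size for a call. Tspan13, a tetraspanin gene 10470 nt away on the other side, had a ratio of 0.820.

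Gp2 (ENSMUSG00000030954; chromosome 7, minus strand, 119442537 to 119459285) had 190 counts in the PM2.5 library and 16 in the control library, 3.05 CPM (2.64 to 3.52) and 0.276 CPM (0.158 to 0.448). The ratio of 11.1 (6.64 to 19.8) was the largest of the 9 genes and 2.50 times that of Agr2 (1.38 to 4.76). Umod, a related gene next to it that is known from kidney, had 1 count in the PM2.5 library and 4 in the control library. Farther away, within 100 kb, Pdilt had 0 counts in the PM2.5 library and 4 in the control library. Acsm5 had 31 and 8, a ratio of 3.61 (1.62 to 9.09), and Acsm2 10 and 1, a ratio of 9.32 (1.33 to 404). Since Gp2 is also known from the exocrine pancreas and from M cells, markers of both were read beside it. Of 8 acinar genes of the pancreas, 2 had 0 counts in the PM2.5 library and 5 in the control library, with Ctrb1 and Amy2a5 at 0 in both. Only 1 of the 8 was measured, with a log2 ratio of 0.03. The summed level was 1.51 CPM in the PM2.5 library and 1.35 CPM in the control library. Of 8 M cell genes, none was at 0 and 6 were measured. Ccl9, a chemokine also made by myeloid cells, was called higher with a ratio of 1.81, and the other 5, among them the transcription factor gene Spib with a ratio of 0.871, were not called. The summed level of the M cell list was 707 CPM in the PM2.5 library and 605 CPM in the control library.

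Spdef (ENSMUSG00000024215; chromosome 17, minus strand, 27714352 to 27728955) had 127 counts in the PM2.5 library and 60 in the control library, 2.04 CPM (1.70 to 2.43) and 1.03 CPM (0.790 to 1.33). The ratio was 1.97 (1.44 to 2.73). Tff2 (ENSMUSG00000024028; chromosome 17, minus strand, 31141049 to 31144282) had 808 counts in the PM2.5 library and 494 in the control library, 12.99 CPM and 8.52 CPM, a ratio of 1.52 (1.36 to 1.71). The ratio of Spdef divided by that of Tff2 was 1.29 (0.924 to 1.83), which leaves their order undetermined. Tff2 is the shortest gene here, with 584 nt of exons, and genes of that length tended to be higher: with the length trend removed its log2 ratio was 0.04, against 0.61 without, and the call was lost. Of the 3 trefoil genes, which lie in a row on chromosome 17, Tff2 alone was detected. Tff1 and Tff3 had 0 counts in both libraries, which allows up to 0.0482 CPM in the PM2.5 library and 0.0517 CPM in the control library (3 counts).

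**Figure D3:**
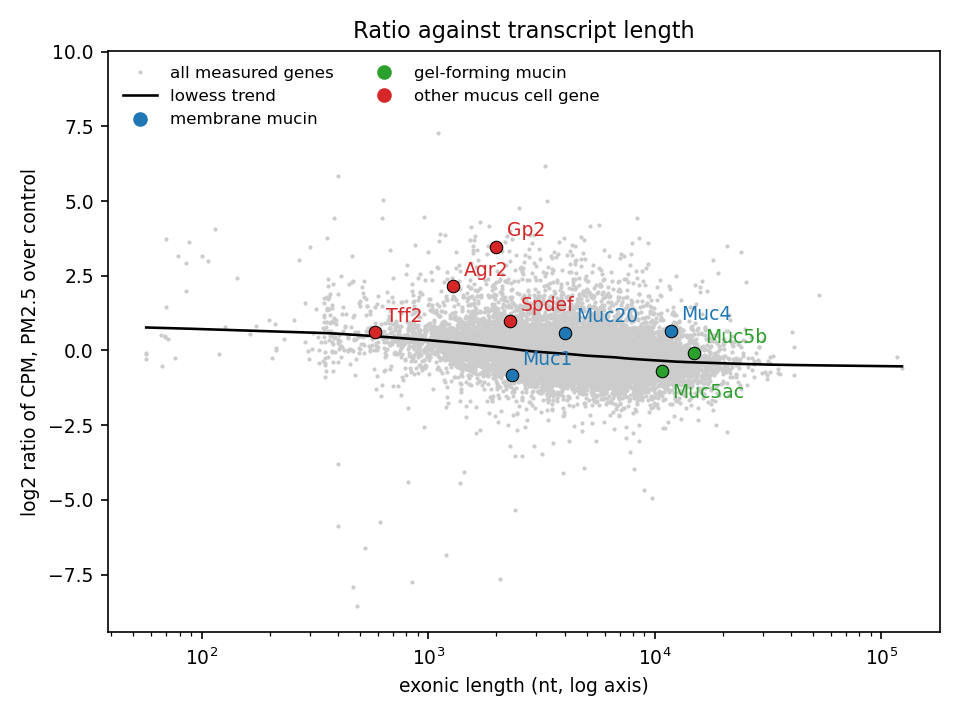
Log2 ratio of CPM, PM2.5 over control, against exonic length (nt, log axis) for 14387 measured genes (grey), with their lowess trend (black line) and the 9 genes in colour. Tff2 lies close to the trend, at 0.04 with the trend removed, while Muc4, at 11757 nt, lies above it and Muc1 below it.

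Levels per length, in TPM (counts divided by exonic length and scaled to 1 common total in each library), put the genes in almost the same order in both libraries. Muc1 was first at 147 TPM in the PM2.5 library and 263 TPM in the control library, followed by Tff2 at 42.4 TPM and 28.0 TPM. On this scale Muc5b, with its long transcript of 14964 nt, stood at 6.85 TPM in the PM2.5 library and 7.39 TPM in the control library. Muc20 was at 6.03 TPM and 4.01 TPM and Muc4 at 4.67 TPM and 2.97 TPM in the PM2.5 and control libraries. Agr2 ranked 3 of 9 in the PM2.5 library at 7.55 TPM and 6 of 9 in the control library at 1.72 TPM, the only gene of the 9 that moved by more than 1 rank. In the PM2.5 library the step between Agr2 and Muc5b was 1.10-fold and that between Muc5b and Muc20 1.13-fold, which without replicates cannot be ranked. Gp2 stood at 2.91 TPM in the PM2.5 library and 0.265 TPM in the control library, Spdef at 1.69 TPM and 0.861 TPM, and Muc5ac was last at 0.145 TPM and 0.237 TPM. With the length of the longest transcript in place of all exons the order was the same in both libraries.

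Over the 9 genes the sum and the median had opposite signs: they summed to 300.4 CPM in the PM2.5 library and 419 CPM in the control library, a log2 ratio of -0.48, while the median log2 ratio was 0.61. The summed level of the 5 mucins was 277 CPM in the PM2.5 library and 408 CPM in the control library, 1.47-fold lower, and that of Agr2, Spdef, Gp2 and Tff2 was 23.2 CPM and 10.99 CPM, a ratio of 2.11 (1.92 to 2.32). Muc1 took 65.3% of the mucin counts in the PM2.5 library and 79.0% in the control library. Without Muc1 the other 8 genes summed to 119 CPM in the PM2.5 library and 96.6 CPM in the control library, a ratio of 1.24 (1.19 to 1.28).

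Annotated promoters were available in RefSeq (GRCm38.p6) for 6 of the 9 genes with counts, and Muc5ac, Muc5b and Tff2 had no entry. The 250 bases before the start are shown for the 3 genes with the largest ratios and for Muc1, the gene that was clearly lower, 5′ to 3′ on the gene's strand with motif matches in capitals, so that the reader can see where they lie. Positions count back from the RefSeq start.
Gp2 chr7:119459273-119459522, minus strand: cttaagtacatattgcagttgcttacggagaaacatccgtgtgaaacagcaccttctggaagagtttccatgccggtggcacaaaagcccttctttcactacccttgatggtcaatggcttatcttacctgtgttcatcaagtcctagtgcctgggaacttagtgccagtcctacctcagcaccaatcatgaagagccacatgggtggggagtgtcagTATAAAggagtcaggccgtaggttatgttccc
Agr2 chr12:35992675-35992924, plus strand: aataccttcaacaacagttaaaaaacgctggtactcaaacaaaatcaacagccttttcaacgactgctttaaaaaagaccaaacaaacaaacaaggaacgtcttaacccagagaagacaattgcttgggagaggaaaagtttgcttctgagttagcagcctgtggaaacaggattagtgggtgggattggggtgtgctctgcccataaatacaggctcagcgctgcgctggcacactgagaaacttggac
Spdef chr17:27728952-27729201, minus strand: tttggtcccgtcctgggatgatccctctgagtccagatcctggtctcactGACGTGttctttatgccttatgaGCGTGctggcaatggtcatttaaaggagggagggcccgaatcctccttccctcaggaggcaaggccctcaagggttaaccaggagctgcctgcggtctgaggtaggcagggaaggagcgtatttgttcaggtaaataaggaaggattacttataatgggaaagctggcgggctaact
Muc1 chr3:89228806-89229055, plus strand: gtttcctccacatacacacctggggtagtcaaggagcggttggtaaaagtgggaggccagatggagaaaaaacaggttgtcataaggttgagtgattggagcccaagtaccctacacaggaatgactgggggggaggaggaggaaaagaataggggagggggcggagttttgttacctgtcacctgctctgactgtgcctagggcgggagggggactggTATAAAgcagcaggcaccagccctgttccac
The motifs searched were CCGGAT for SPDEF, TGTTTAC for FOXA factors, CACTTGA for NKX2-1, GCGTG for the aryl hydrocarbon receptor, TTC and GAA with 4 bases between them for STAT6 and GACGTG for CREB3L1 and XBP1, on both strands, and TATAAA on the gene's strand. The TATA box letters were at -32 to -27 in Gp2 and at -31 to -26 in Muc1, a higher and a lower gene, and at -36 to -31 in Muc4. They occur in 7.59% of 32851 promoters. Spdef held GACGTG at -200 to -195, found in 5.202% of promoters, and GCGTG at -177 to -173, found in 28.2%. Muc20 held TGTTTAC on the opposite strand at -248 to -242, found in 3.17%. The Agr2 window held none of the 7 motifs, and no window of these genes held the letters searched for SPDEF, NKX2-1 or STAT6, which occur in 4.94%, 2.68% and 5.85% of promoters. None of the matches overlapped another, and a match is only a string of letters.

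The wider machinery of mucus was read from 6 related lists, and the secreted products were the list with the most genes called higher. The list has 18 secreted products, of which 11 were measured. In the PM2.5 library 6 of them were higher and 0 lower, against 14.9% and 19.1% of all measured genes. All 6 related lists were chosen with earlier results of these data known, so such shares are a description and not a test. The median log2 ratio of the list was 0.60, and 0.38 with the length trend removed. The host defence protein gene Bpifa1 reached 1085 CPM in the PM2.5 library, against 143 CPM in the control library, a ratio of 7.56 (7.39 to 7.74). Bpifb1, a related secreted protein, had 147 CPM in the PM2.5 library and 67.7 CPM in the control library, and the lectin Reg3g 103 CPM and 28.8 CPM. Pigr, which carries antibodies into mucus, had a ratio of 1.83, and the chitinase Chia1 1.42, which was not called. Lactoferrin, Ltf, had a ratio of 3.42, and lysozyme, Lyz2, 1.52. Both are also made by neutrophils or macrophages, and all 6 neutrophil markers were higher, at a summed 1599 CPM in the PM2.5 library and 484 CPM in the control library. The part of those cells in the ratios of Ltf and Lyz2 was not tested. The goblet cell products Clca1 and Fcgbp did not share the ratio of Agr2: Clca1 had 506 counts in the PM2.5 library and 411 in the control library, a ratio of 1.15 (1.01 to 1.31), and Fcgbp 287 and 339, a ratio of 0.789 (0.672 to 0.926).

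Regulators of mucus cells were mostly not called. Of 24 genes, 20 were measured, 1 was higher and 4 lower, with a median of -0.21. The 4 lower calls lie near the share of all measured genes called lower, 19.1%, and 14.9% were called higher. Alox15, a lipoxygenase induced by interleukin 4 and interleukin 13, was higher with 287 counts in the PM2.5 library and 119 in the control library, a ratio of 2.25 (1.81 to 2.81). Creb3l1, a membrane-bound transcription factor of secretory cells, was 2.93-fold lower (2.70 to 3.18), at 13.1 CPM in the PM2.5 library and 38.4 CPM in the control library. It is also expressed by cells that secrete matrix. Il4ra, the receptor chain through which interleukin 4 and interleukin 13 induce mucus, was 1.51-fold lower, and its effector Stat6 had a ratio of 0.798. The lung lineage factor Nkx2-1 had a ratio of 0.814 and Xbp1, of the unfolded protein response, 1.07. Foxa3, a goblet cell factor, had 15 counts in the PM2.5 library and 16 in the control library, and the cytokine Il13 had 4 in each.

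Enzymes that build O-linked sugars gave calls in both directions, 4 higher and 5 lower of 25 measured among 32, with a median of -0.18. These counts lie near the shares over all measured genes, 14.9% higher and 19.1% lower. The higher ones included Chst4, which adds sulfate to sugar chains of mucins and of lymph node vessels, with 556 counts in the PM2.5 library and 52 in the control library, a ratio of 9.97 (7.49 to 13.5). B3gnt3, which extends such chains, had a ratio of 3.54 (3.10 to 4.06), and Fut2, which adds the terminal fucose of secretor glycans, 3.08 (2.03 to 4.795) on 99 counts in the PM2.5 library and 30 in the control library. Both Chst4 and Fut2 were below 1 CPM in the control library. The abundant transferases were lower or not called: Galnt18 was 1.89-fold lower, St3gal2 1.97-fold lower, and Galnt1 and St3gal1 had ratios of 0.842 and 0.679.

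Of 21 measured genes for granule release and airway hydration among 23, 6 were lower and 0 higher, and their median was -0.32. Over all measured genes 19.1% were called lower and 14.9% higher. Marcks, which tethers mucin granules and has many other roles, was 2.32-fold lower (2.26 to 2.38). The sodium channel subunits Scnn1g and Scnn1a, which dry the airway surface by taking up sodium, were 2.01-fold and 1.95-fold lower. They stood at 112 CPM and 287 CPM in the PM2.5 library and 225 CPM and 561 CPM in the control library. These are levels of whole lung and do not show whether the airway differed. Vamp8, the vesicle protein of mucin granules, had a ratio of 1.37, under the size for a call. The 18 folding genes of the endoplasmic reticulum gave 1 higher and 1 lower, Manf at 1.59-fold and Sel1l at 1.62-fold, with a median of -0.20. The abundant chaperones Hspa5, Hsp90b1, Pdia3 and P4hb had ratios of 1.33, 1.05, 0.933 and 0.795.

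Among 19 other mucins and mucin-like proteins, 15 had a row, 7 were measured, 2 were higher and 2 lower. The shares over all measured genes were 14.9% higher and 19.1% lower. The higher were Muc6, described above, and Ovgp1, a glycoprotein known from the oviduct, with 180 counts in the PM2.5 library and 26 in the control library, a ratio of 6.45 (4.26 to 10.1). Both passed the filter only through the PM2.5 library. The lower were Podxl and Emcn, sialomucins of blood vessel walls, at 1.71-fold and 1.60-fold. Cd164 and Parm1 had ratios of 0.765 and 0.839. The other 8 stayed below a mean of 1 CPM, and Muc3 and Muc15 had 0 counts in both libraries.

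**Figure D4:**
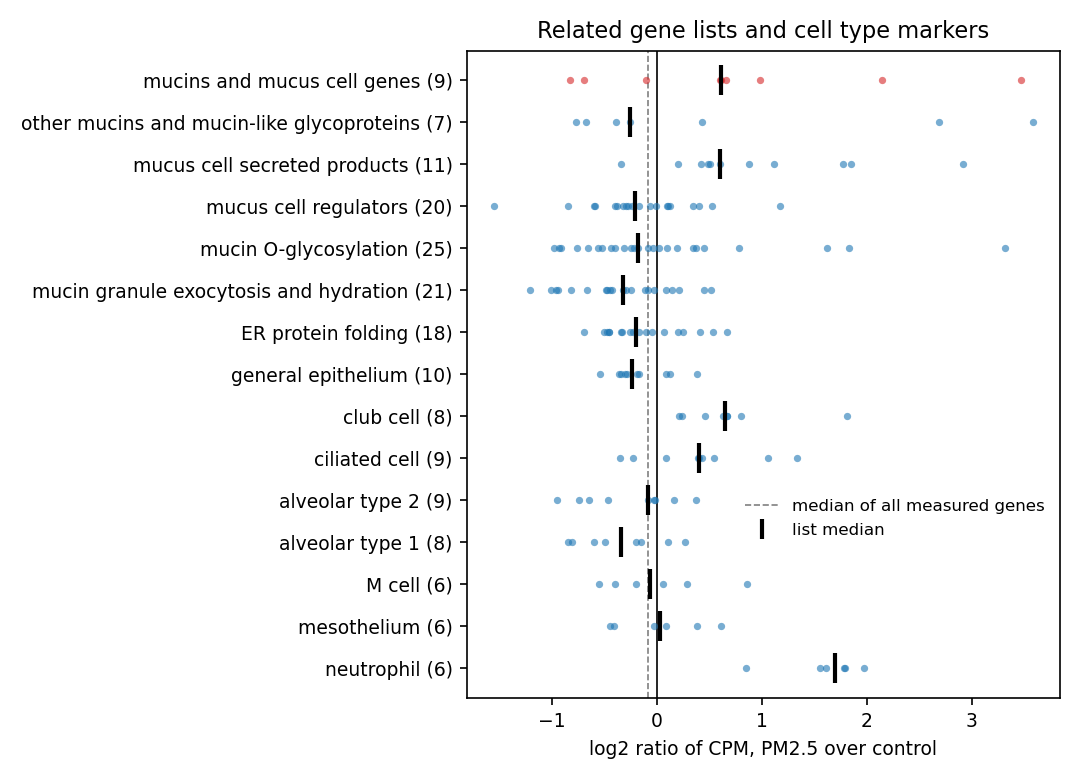
Log2 ratio of CPM, PM2.5 over control, for the measured genes (points, number in brackets) of the 9 genes in red and of related lists and marker lists with at least 5 measured genes in blue; black ticks are list medians. The dashed line is the median of all measured genes, -0.09. The secreted products (0.60) and the club cell (0.65), ciliated cell (0.40), neutrophil (1.69) and mesothelium (0.03) markers have higher medians. The general epithelium list (-0.24) and the regulators (-0.21) do not. With the length trend removed these medians are, in the same order, 0.38, 0.31, 0.14, 1.23, 0.03, -0.26 and -0.18.

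In whole lung tissue, fewer cells of a type and less RNA per cell cannot be told apart, so markers of the cells that express these genes were read beside them. The calls below stand against 14.9% of all measured genes called higher and 19.1% called lower. General epithelial markers differed little: 0 of 10 were called, none was at 0, and their sum was 1331 CPM in the PM2.5 library and 1423 CPM in the control library. Club cell markers, which mark the main secretory cells of mouse airways, were called higher in 5 of 8, none was at 0, and their sum was 40893 CPM in the PM2.5 library and 26830 CPM in the control library. Of 9 ciliated cell markers 2 were higher, with a sum of 604 CPM in the PM2.5 library and 459 CPM in the control library. Of 7 basal cell markers 4 were measured and 2 higher. Their sum was 18.4 CPM in the PM2.5 library and 7.05 CPM in the control library, and none was at 0. Krt15, a keratin of basal cells, had the largest log2 ratio of the 4, 2.79, with 469 counts in the PM2.5 library and 63 in the control library. The other 2 measured genes were not called, beyond the 2 called higher, and the lowest log2 ratio was -0.22. The median log2 ratios of the club, ciliated and basal cell lists were 0.65, 0.40 and 0.60. With the length trend removed they were 0.31, 0.14 and 0.26. Of 6 mesothelial markers 1 was higher, with a sum of 473 CPM in the PM2.5 library and 462 CPM in the control library. Of 6 markers of tuft and neuroendocrine cells 2 were measured and 1 higher, with a sum of 11.3 CPM in the PM2.5 library and 7.35 CPM in the control library. The alveolar type 2 and type 1 lists each gave 0 higher and 3 lower, of 9 and of 8 markers. Type 2 cells also express Muc1. The type 2 sum was 28093 CPM in the PM2.5 library and 26176 CPM in the control library, and the type 1 sum 5556 CPM and 7853 CPM.

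Markers of neighbouring organs were few. Of 9 markers of salivary and submucosal glands, 6, among them Lpo and Pip, had 0 counts in both libraries. The 3 measured were Amy1 and Bhlha15, higher with ratios of 4.79 and 1.66, and Bpifa2, 2.45-fold lower, and the sum was 11.5 CPM in the PM2.5 library and 5.28 CPM in the control library. Amy1 shares sequence with other amylase genes and is uncertain. Of 8 gastric and oesophageal markers, Gkn1, Tff1 and Sprr3 had 0 counts in both libraries. Gkn3 was higher with a ratio of 3.60, Pgc was 3.22-fold lower, and the sum was 4.29 CPM in the PM2.5 library and 4.12 CPM in the control library. The part of any of these cell types in the ratios of the 9 genes was not tested.

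Set against the summed epithelial markers in place of the whole library, all 8 called genes kept their call, with log2 ratios of 3.56 for Gp2, 2.24 for Agr2 and -0.74 for Muc1. Set against the summed club cell markers, a comparison chosen after the data were seen, the picture differed by gene. Muc4, Muc20 and Tff2 then had log2 ratios of 0.05, -0.0091 and 0.00034, level with those markers. Spdef, at 0.37, was no longer called. Agr2 and Gp2 were still called higher, at 1.54 and 2.86, Muc1 and Muc5ac were called lower at -1.44 and -1.30, and Muc5b at -0.71. The club cell sum is dominated by Scgb1a1, the club cell secretoglobin, with 1860197 counts in the PM2.5 library and 1123766 in the control library. This scaling makes no allowance for the length trend. With that trend removed from TMM ratios, the club cell median was 0.31, against 0.65 with it. The log2 ratios of Muc4, Muc20 and Tff2 were then 0.94, 0.62 and 0.04, so being level with those markers depends on the treatment of length.

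**Figure D5:**
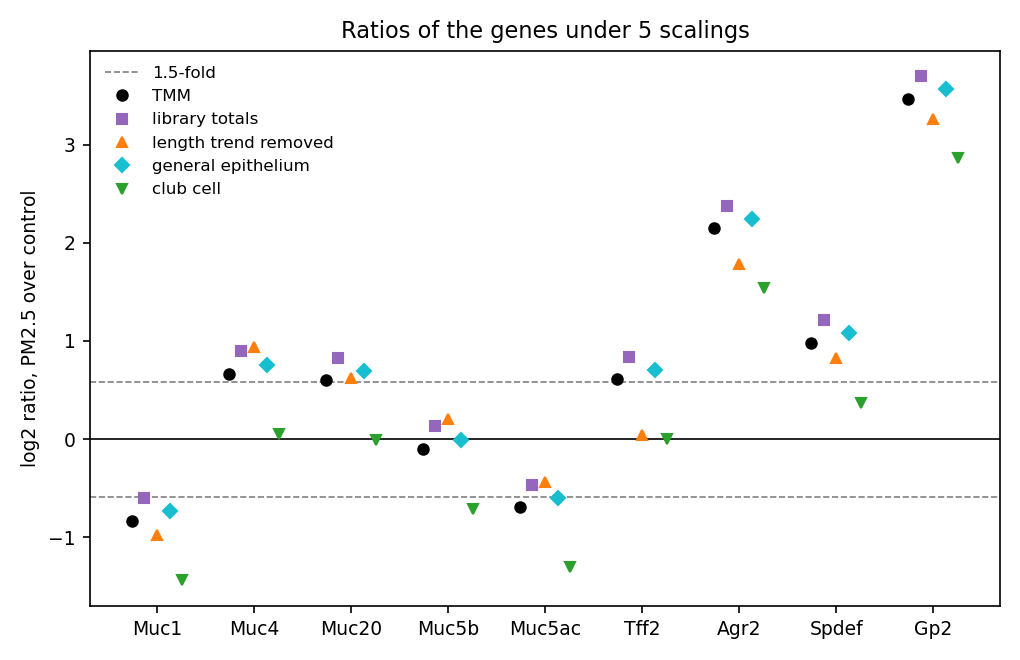
Log2 ratio, PM2.5 over control, of each gene under 5 scalings: TMM, library totals, TMM with the length trend removed, and scaling to the summed general epithelium or club cell markers. Dashed lines mark 1.5-fold. Agr2 and Gp2 lie above and Muc1 below the lines in all 5, whereas Muc4, Muc20 and Tff2 lie near 0 when set against club cell markers.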

How the data were processed

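Raw read counts per Ensembl gene were deposited for 1 PM2.5 and 1 control lung library. The labels' protocols describe mRNA made into stranded KAPA libraries and read in pairs of 125 bp. Builds and tools named in the submitters' processing notes are mm10, TopHat2 2.1.1 and HTSeq 0.6.0. The sources used here do not give the annotation release, the strand setting or the handling of reads that map to several places. Symbols, coordinates and exonic lengths came from GENCODE M21 (GRCm38), which named 35449 of 37315 identifiers.

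Counts were scaled with TMM (edgeR 4.0.16, factors 1.08 for PM2.5 and 0.923 for control). Ratios of CPM have a Clopper-Pearson 95% interval, and ratios of ratios an exact conditional one. Levels of single libraries have exact Poisson intervals. A library at 0 is set against 3 counts. The calculation of ratios and calls was checked on simulated Poisson counts scaled by library totals. Those counts hold no spread between animals and no length trend, so the check does not bear on either. No p-value is given, since 1 library a group leaves no residual degrees of freedom.

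The 10 genes and the lists were chosen with earlier results of these data known. By rule, the text names all 10, and of each list the 4 most abundant genes and up to 4 genes that differed 2-fold or more. Neighbours that bear on counting were named too. Agr3, Tspan13, Umod, Clca1, Fcgbp, Pigr, Foxa3, Il13, Manf, Sel1l, Muc2, Bhlha15 and the genes listed at 0 were chosen after their values were seen, and some genes that the rule takes are left out. Alternatives were library totals, the upper quartile, size factors of DESeq2 1.42.0, TMM without the 100 most abundant genes, removal of the length trend by lowess, thinning of the control library, other filters and sizes, and scaling to marker sums. The tools were R 4.3.3 and Python 3.11.15 with scipy 1.17.1 and statsmodels 0.14.6. The coding stretch of 1 mucin is not reported here.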

Additional observations from a re-analysis of the deposited data

How the results depend on the processing

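The log2 ratios of Gp2, Agr2, Spdef, Muc4, Tff2, Muc1 and Muc5ac kept their sign in all 8 alternatives that recompute ratios. Of these, 1, scaling to club cell markers, was chosen after seeing the data. Against club cell markers the counting intervals of Spdef, Muc4 and Tff2 held a log2 ratio of 0. The same was true of Tff2 with the length trend removed, and of Muc5ac with library totals or the length trend removed. Gp2, Agr2 and Muc1 also kept their call in all 8, Spdef, Muc4 and Muc20 in 7, Tff2 in 6 and Muc5ac in 5. Muc20 changed sign only against club cell markers, with a log2 ratio of -0.0091 and an interval that also held 0. Muc5b was above 0 in 3 of 8. The 6 genes called higher became 3 above a mean of 10 CPM, 2 at 2-fold and 2 against club cell markers. The 2 called lower became 1 with library totals, the upper quartile, the length trend removed or 10 CPM, and 0 at 2-fold. Over all genes, 2163 higher calls became 3456 with library totals, 4471 without a filter, 866 at 10 CPM and 1053 at 2-fold, and 2776 lower calls became 1440 with library totals and 877 at 2-fold. In the 6 related lists, 14 higher calls became 26 with library totals, 22 without a filter and 9 at 10 CPM, and 18 lower calls became 10 with library totals and 3 at 2-fold. By construction fewer genes were tested at 10 CPM, more without a filter, and fewer can pass at 2-fold; for the other settings the cause was not tested. No paired analysis was possible because each group has 1 library, and no library could be left out. Depth limits Muc5ac, Gp2, Spdef and Agr2 most, with fewer than 100 counts in a library.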
